A study of Mus musculus with 12 samples.

Results

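Imprinted genes are transcribed mainly from 1 parental chromosome, and 39 of them, named in a list of symbols, were followed in mouse corticotrophs through 4 weeks of glucocorticoid treatment and after its withdrawal. All 39 were found among the 55304 genes of the expression table. The cells were eGFP positive cells of the pituitary of male *Pomc*-eGFP mice on a C57Bl6/J background, 8 weeks old at the start, in which the *Pomc* promoter drives the green fluorescent protein, so that the gate itself depends on a promoter that glucocorticoids repress. Control mice drank water, DEX mice received the synthetic glucocorticoid dexamethasone at 2.5 µg/ml in the water for 4 weeks, and the last groups received the same course followed by 1 week or 4 weeks (7 or 28 days) without it. Each group had 3 libraries, each made from sorted cells of several pooled pituitaries, so the replicates are pools and not mice.

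Imprinted genes carry methylation marks laid down in the egg or the sperm, and these imprints are kept through cell division while the rest of the genome is reprogrammed. Most lie in clusters in which 1 differentially methylated control region sets the allele used by several genes, often with a long noncoding RNA among them. Many act in growth, and several are well known in the pituitary. Among them are *Dlk1*, which encodes a Notch-like membrane protein, and *Meg3*, a noncoding RNA silenced in some human pituitary adenomas. The files hold no allele information, so whether a gene was imprinted in these cells could not be checked, and for *Ube3a*, *Ddc*, *Ppp1r9a*, *Copg2* and *Grb10* imprinting is known to depend on tissue or isoform.

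The values were normalised counts, which are CPM of an effective library size, and 1 read was worth 0.0787 to 0.127 of them. Reads on genes ranged from 7719894 to 12848078 per library. The 6 corticotroph markers summed to 35294 to 75533 in control pools, 5558 to 9417 in DEX pools, 43869 to 286223 at 1 week and 48721 to 80895 at 4 weeks after withdrawal, most of it *Pomc*. The sum is therefore no measure of the share of corticotrophs. *Tbx19* lay above every control pool with DEX, at 498 to 1490 against 218 to 459. So did *Avpr1b*, at 67.9 to 130 against 12.1 to 60.0, while *Crhr1* overlapped control, at 52.7 to 138 against 85.5 to 189. Markers of other cells were present in every group, and the 6 somatotroph markers, led by *Gh*, summed to 68093 to 266367. The 7 endothelial markers ran from 7.00 to 66.3 in control pools, 3.31 to 9.89 in DEX pools and 77.5 to 148 at 4 weeks. The 7 macrophage and leukocyte markers ran from 61.5 to 136, 26.3 to 41.0 and 106 to 228. No list was wholly at 0 in any group. In such mixtures fewer cells of a type and less RNA per cell cannot be told apart.

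Of the 39 imprinted genes, 36 exceeded 0.1 in 3 or more libraries, the filter used, and *H19*, *Magel2* and *Peg12* did not. With limma over all 24736 genes tested, 0 of the 36 passed an adjusted p of 0.05 in the F test over the 4 groups, where 0.315% of all genes did, and their adjusted p ranged from 0.104 to 0.998. At an unadjusted p under 0.05 there were 2 members, *Zim1* and *Usp29*, against 9.21% of all genes. Other tools gave other counts, both of members and of all genes. edgeR's quasi-likelihood test called 0 members and 0.667% of all genes, DESeq2 called 2 members and 2.97%, and edgeR's likelihood ratio test called 3 members and 4.23%. Over 11 alternative tools and settings that kept all 12 libraries, *Zim1* was called in 4, *Usp29* in 2, and *Rian* and *Kcnq1ot1* in 1 each. *Rian* and *Kcnq1ot1* were both highest in the third 1-week pool. Both unadjusted members lie in the *Peg3* domain, which is described first.

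Sequence around the starts of this domain's genes is shown because *Peg3* and *Usp29* are divided by a short stretch between their divergent starts while *Zim1* has a start of its own. The letters are RefSeq promoters on GRCm38.p6, only the part before the start, 5′ to 3′, and capitals mark CG dinucleotides, the sites that DNA methylation uses. The first is chr7:6730420-6730582 on the plus strand, which is the direction of *Usp29* (163 bases, 5 CG), and the second is chr7:6696433-6696682 on the minus strand, the direction of *Zim1* (250 bases, 14 CG).
Peg3-Usp29: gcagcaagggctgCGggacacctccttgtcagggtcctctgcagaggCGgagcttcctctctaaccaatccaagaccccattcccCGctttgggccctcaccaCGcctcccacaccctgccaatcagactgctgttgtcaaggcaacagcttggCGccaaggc
Zim1: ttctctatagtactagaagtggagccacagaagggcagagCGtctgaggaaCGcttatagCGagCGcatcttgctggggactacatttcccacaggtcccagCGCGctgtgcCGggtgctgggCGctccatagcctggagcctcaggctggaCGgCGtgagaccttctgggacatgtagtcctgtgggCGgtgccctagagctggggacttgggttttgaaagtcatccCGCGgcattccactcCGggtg

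*Zim1*, a zinc finger gene expressed from the maternal allele (chromosome 7, 6671269 to 6696450, minus strand in GENCODE M21), had 45.9, 27.2 and 24.4 normalised counts in the control pools and 27.5, 25.1 and 15.5 in the DEX pools. At 1 week after withdrawal it had 17.3, 12.5 and 13.8, and at 4 weeks 15.2, 5.69 and 5.32. All pools of both withdrawal groups lay below the lowest control pool, and the 4-week pools also lay below every DEX pool. The log2 fold change against control, on the log2(value + 0.1) scale used throughout, was -0.50 ± 0.39 (SE, n = 3 pools a group) for DEX, -1.11 ± 0.39 at 1 week and -2.00 ± 0.39 at 4 weeks. The F test gave an unadjusted p of 0.0008 and an adjusted p of 0.104 (limma), and 4 weeks against DEX gave -1.50 ± 0.39 with an adjusted p of 0.0958. Across the other tools and settings the adjusted F p of *Zim1* ran from 0.000998 to 0.123, and leaving out 1 library at a time from 0.0408, without the first 4-week pool, to 0.362.

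*Usp29*, a gene of the ubiquitin protease family expressed from the paternal allele (chromosome 7, 6730578 to 6967219, plus strand), had 63.3, 35.8 and 34.7 normalised counts in control pools and 45.5, 34.7 and 33.3 in DEX pools. It had 36.1, 18.7 and 35.7 at 1 week and 22.2, 16.7 and 14.3 at 4 weeks. Only the 4-week pools lay apart, below all control and all DEX pools. The log2 fold change was -1.29 ± 0.32 at 4 weeks against control and -1.10 ± 0.32 against DEX, and the adjusted F p was 0.222 (limma). It shares part of its span on the opposite strand with *Zim3*, and since the library kit does not mark strand, reads of the 2 genes cannot be told apart there. *Zim3* had 1.20 to 6.92 normalised counts in control pools, 5.64 to 11.02 in DEX pools and 1.08 to 2.30 at 4 weeks.

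*Peg3* itself, a paternally expressed zinc finger gene (chromosome 7, 6703892 to 6730431, minus strand), stood far above its neighbours, with 90.4 normalised counts per kb of exon against 1.80 for *Usp29* and 2.42 for *Zim1*. Its control pools spread widely, with 2203, 1262 and 789 normalised counts, and the DEX pools had 1477, 1183 and 1188. The pools at 1 week had 1279, 1482 and 1016, and those at 4 weeks 1011, 914 and 648. The 4-week pools lay below all DEX and all 1-week pools but overlapped control, and the log2 fold change against control was -0.62 ± 0.38 (adjusted p = 0.845, limma). Of the corticotroph markers, *Tbx19* was also low at 4 weeks, with 94.4 to 188 normalised counts against 218 to 459 in control and 498 to 1490 in DEX pools. *Avpr1b*, *Crhr1* and *Pomc* overlapped control at 4 weeks, as did the summed level of the 6 markers, most of it *Pomc*. Summed markers of some other cells lay above every control pool at 4 weeks. Thyrotroph markers had 470 to 735 against 133 to 293 in control, and stem and folliculostellate markers 594 to 680 against 225 to 434. Lactotroph, gonadotroph, endothelial, and pericyte and fibroblast markers did so too. Melanotroph, somatotroph, macrophage and leukocyte, erythroid and proliferation markers overlapped control. The part of the cell mixture in the *Peg3* domain values was not tested.

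**Figure D1:**
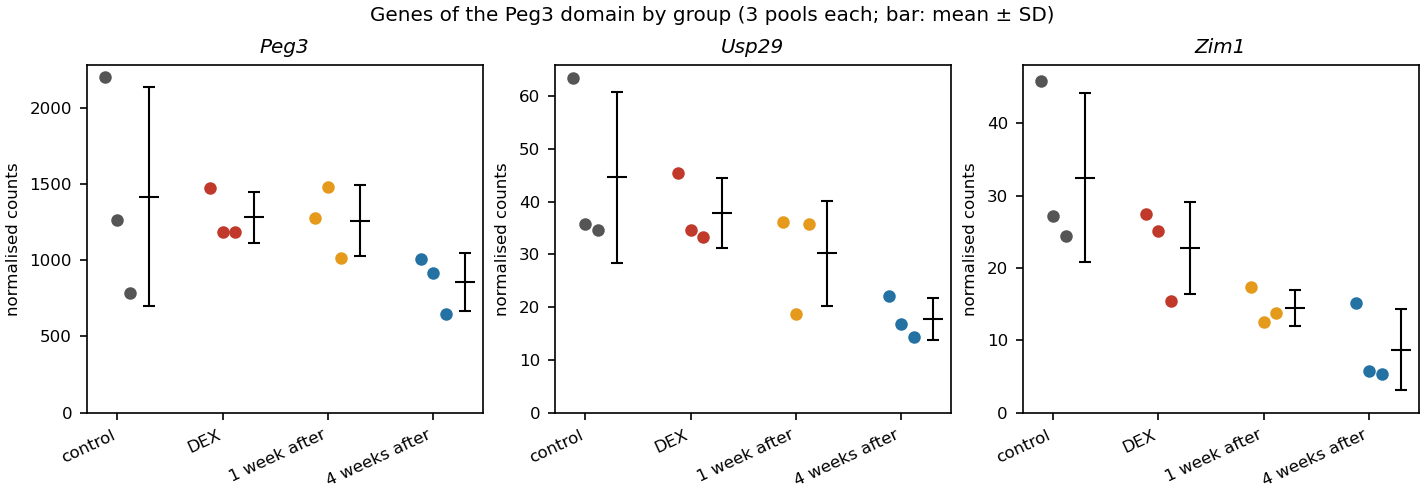
Normalised counts of *Peg3*, *Usp29* and *Zim1* by group, on linear axes from 0, with 1 point per pool and a bar for the mean ± SD of 3 pools. For *Zim1* the 4-week pools, at 5.32 to 15.2, sit below all control and DEX pools, while for *Peg3* they overlap the control pools, which run from 789 to 2203.

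Across the 12 libraries *Peg3* correlated with *Zim1* at r = 0.70 (permutation p = 0.0106, adjusted over 12 pairs of neighbours 0.0255) and rho = 0.57 (permutation p = 0.0565, adjusted 0.113). With *Usp29* it had r = 0.68 (permutation p = 0.0151, adjusted 0.0302) and rho = 0.63 (permutation p = 0.0331, adjusted 0.0795). Both rested on the first control pool and the third 4-week pool, since without them r was 0.28 and 0.21.

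The *Dlk1*-*Dio3* domain on chromosome 12 differed from the *Peg3* domain in that its noncoding RNAs varied widely between pools of the same group. Such spread was not particular to this domain. The SD of log2 values about the group means was 0.97 for *Rian*, beside 1.39 for *Kcnq1ot1* and 1.07 for *Zdbf2*, which lie elsewhere. *Meg3*, *Rian* and *Mirg* are maternally expressed noncoding RNAs that lie one after the other on the plus strand (109541001 to 109749460), and RefSeq places 58 miRNA hairpins between *Dlk1* and *Dio3*, 14 of them within *Mirg* and 3 within *Rian*. *Meg3* is shown by the 250 bases before its start at chr12:109540746-109540995, plus strand, with its 10 CG in capitals, because the RNAs below it moved with it from library to library.
Meg3: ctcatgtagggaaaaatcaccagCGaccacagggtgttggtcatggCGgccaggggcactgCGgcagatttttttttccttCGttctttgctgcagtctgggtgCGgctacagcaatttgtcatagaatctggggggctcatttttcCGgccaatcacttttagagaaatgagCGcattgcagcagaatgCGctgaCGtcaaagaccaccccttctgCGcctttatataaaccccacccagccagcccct

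*Meg3* had 917, 867 and 1480 normalised counts in control pools, 855, 1365 and 130 in DEX pools, 741, 90.5 and 2235 at 1 week and 943, 282 and 275 at 4 weeks. The groups overlapped in every comparison, and the highest library was 24.7 times the lowest. The SD of its log2 values about the group means, 1.58, was larger than that of 98.5% of all genes tested. *Rian* had 97.2, 116 and 203 in control pools, 101, 148 and 54.9 in DEX pools, 84.1, 60.4 and 541 at 1 week and 78.7, 62.2 and 58.9 at 4 weeks. For *Mirg* the lowest values were 3.03 in the third DEX pool and 3.82 in the second 1-week pool, and the highest were 40.9 in the third control pool and 41.5 in the third 1-week pool.

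*Meg3* correlated with *Rian* at r = 0.79 (permutation p = 0.00194, adjusted 0.00582) and rho = 0.89 (permutation p = 0.00024, adjusted 0.0012), and r was 0.85 without the 2 libraries farthest from the median of *Meg3*. *Rian* correlated with *Mirg* at r = 0.89 (permutation p = 4e-05, adjusted 0.00048) and rho = 0.90 (permutation p = 0.00013, adjusted 0.0012), and at r = 0.84 without 2 libraries. On deviations from the group means r was 0.83 and 0.95, so the relation lay between pools of the same group.

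The domain also holds protein-coding genes. *Dlk1*, expressed from the paternal allele, had 1023, 1284 and 1982 normalised counts in control pools, 1067, 1360 and 1396 in DEX pools, 1166, 1772 and 1806 at 1 week and 1644, 1793 and 1639 at 4 weeks. Its 4-week pools all lay above the DEX pools, with a log2 difference of 0.42 ± 0.35 (adjusted p = 0.804, limma), and its correlation with *Meg3* was r = -0.14 (permutation p = 0.656, adjusted 0.715) and rho = 0.17 (permutation p = 0.606, adjusted 0.661). *Rtl1*, a retrotransposon-like gene transcribed opposite to a maternal antisense RNA whose reads cannot be told apart from its own here, had 2.41 to 8.05 in 11 libraries and 21.1 in the third 1-week pool, the pool in which *Meg3*, *Rian* and *Mirg* also peaked, but in DEX pools it was highest in the third, where those RNAs were lowest. *Dio3*, the deiodinase that inactivates thyroid hormone, had at most 4 reads in any library.

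**Figure D2:**
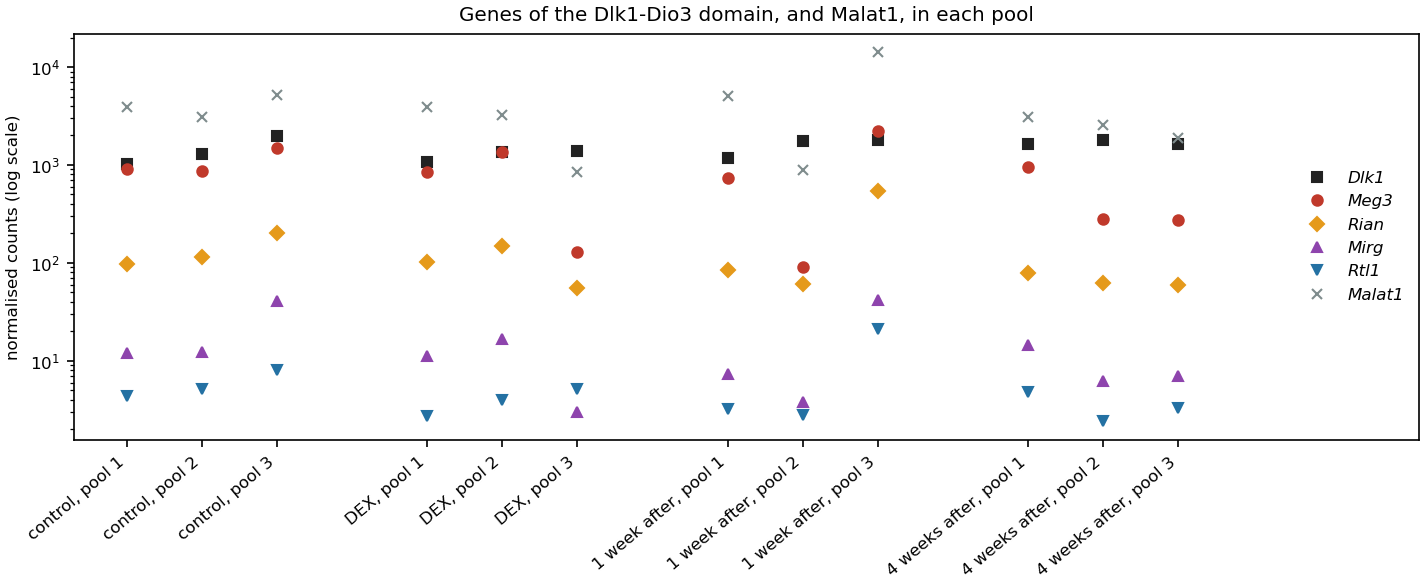
Normalised counts of 5 genes of the *Dlk1*-*Dio3* domain and of *Malat1* in each of the 12 pools, on a log axis, with 1 marker shape per gene. *Meg3*, *Rian*, *Mirg* and *Malat1* are high in the third 1-week pool and low in the second 1-week pool and the third DEX pool, while *Dlk1* stays between 1023 and 1982.

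Some of these pools also stood apart for other RNAs. *Malat1*, a nuclear RNA that is not imprinted and was chosen after its values were seen, had 853 normalised counts in the third DEX pool, 889 in the second 1-week pool and 14167 in the third 1-week pool, against 1893 to 5196 in the other libraries. *Neat1*, another nuclear noncoding RNA chosen after its values were seen, was low in the third DEX and the second 1-week pool, at 11.999 and 7.52, but also at 26.3 and 17.1 in the second and the third 4-week pool, and its 97.9 in the third 1-week pool lay within the 67.0 to 141 of the other libraries. *Kcnq1ot1*, the paternally expressed antisense RNA of the *Kcnq1* domain, had 9.53 in the third DEX pool, 10.1 in the second and 219 in the third 1-week pool, and 19.2 to 91.1 elsewhere. *Zdbf2*, a paternally expressed protein-coding gene, had 21.6, 14.9 and 140 in them and 47.7 to 134 elsewhere. The third 1-week pool was also lowest in *Tbx19* (39.5) and *Avpr1b* (1.56), the pituitary vasopressin receptor, and the part of RNA quality or cell mixture in these differences was not tested.

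Over all members measured above 0 in each pool of a group, 19 of 31 had their lowest DEX value in the third pool, where 37.7% of all genes did, and 17 of 31 had their lowest 1-week value in the second pool, where 35.8% of all genes did. At 4 weeks 20 of 31 were lowest in the third pool, against 34.4% of all genes. In control 15 of 32 were lowest in the first pool, against 32.7% of all genes. The pool named for each group is the one where most members were lowest, so it was chosen after the values were seen.

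The most abundant member was *Nnat*, which encodes neuronatin, a small membrane protein of the endoplasmic reticulum expressed from the paternal allele. It took 0.990% to 2.701% of the reads on genes, with 95% Wilson intervals that cover counting error only and reached from 0.984% to 0.996% in the lowest library and from 2.69% to 2.71% in the highest. The pools had 12739, 13729 and 21161 normalised counts in control, 14355, 11922 and 25207 with DEX, 10079, 17640 and 16816 at 1 week and 9684, 13612 and 13362 at 4 weeks. The groups overlapped in all comparisons, and the log2 fold change against control was 0.07 ± 0.70 for DEX and -0.36 ± 0.70 at 4 weeks. Per kb of exon *Nnat* had 8215 normalised counts, followed by *Dlk1* with 264, *Mest* with 226 and *Nap1l5* with 167. It lies within *Blcap* on the opposite strand, and *Blcap* had 243 to 401 normalised counts in the 12 libraries.

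**Figure D3:**
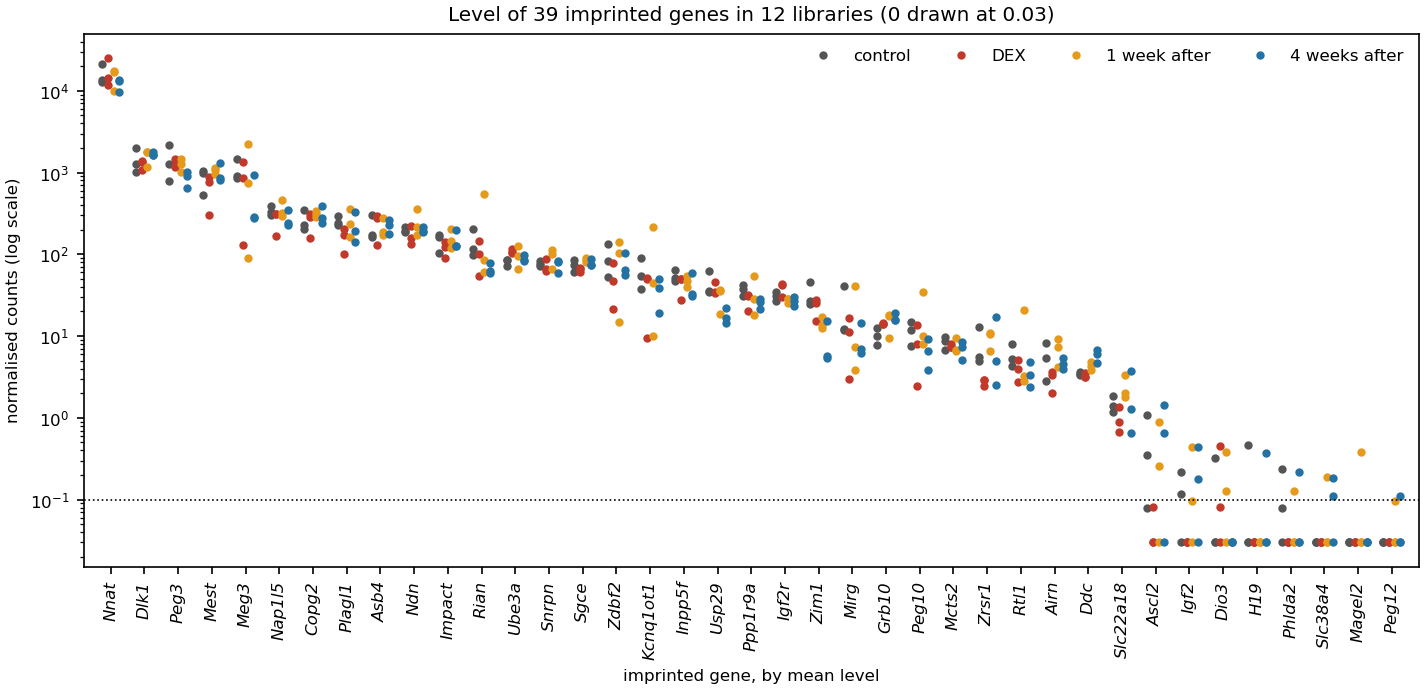
Normalised counts of the 39 imprinted genes in each of the 12 libraries, ordered by mean level on a log axis, coloured by group, with values of 0 drawn at 0.03 and a dotted line at the filter of 0.1. *Nnat* leads at 9684 to 25207, the pools of all groups overlap for most genes, and each of the 8 genes at the right was at 0 in some libraries.

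The retrogenes that sit in host introns, all paternally expressed as *Nnat* is, kept apart levels. *Nap1l5*, a relative of nucleosome assembly proteins within *Herc3*, had 327, 386 and 299 normalised counts in control pools, 315, 315 and 165 in DEX pools, 467, 294 and 316 at 1 week and 346, 244 and 227 at 4 weeks. Its groups overlapped, and *Herc3* had 25.01 to 77.4. *Mcts2*, whose reads may be shared with its parent *Mcts1*, had group means of 7.03 to 8.38.

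*Zrsr1*, a splicing factor retrogene within *Commd1*, had 4.96, 5.54 and 12.8 normalised counts in control pools and 2.48, 2.94 and 2.92 in DEX pools. It had 6.56, 10.96 and 10.7 at 1 week and 4.90, 17.3 and 2.53 at 4 weeks. The DEX pools lay below all control and all 1-week pools, with log2 differences of -1.32 ± 0.57 for DEX against control (unadjusted p = 0.0346, adjusted p = 0.696) and 1.69 ± 0.57 for 1 week against DEX (unadjusted p = 0.00939, adjusted p = 0.242, limma). *Commd1* had 20.03 to 33.6 in DEX pools and 19.2 to 31.3 in control pools, and the related *Zrsr2* had 26.9 to 36.2 and 33.3 to 40.1.

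In the *Mest* domain on chromosome 6, *Mest*, a paternally expressed gene of the hydrolase family, had 534, 1058 and 978 normalised counts in control pools, 775, 882 and 299 in DEX pools, 956, 1064 and 1145 at 1 week and 1318, 858 and 821 at 4 weeks. All 1-week pools lay above the DEX pools, with a log2 difference of 0.84 ± 0.41 (adjusted p = 0.484, limma). *Copg2*, a coat protein gene that ends within *Mest* on the opposite strand, had 205, 350 and 230 in control pools, 289, 307 and 159 in DEX pools, 335, 286 and 308 at 1 week and 385, 281 and 240 at 4 weeks. The pair correlated at r = 0.88 (permutation p = 0.00032, adjusted 0.00176) and rho = 0.73 (permutation p = 0.00973, adjusted 0.0292), and without the third DEX and first control pools at r = 0.59 (permutation p = 0.0717, adjusted 0.215). Reads of their overlap cannot be assigned to either gene.

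*Plagl1*, a paternally expressed zinc finger regulator of growth, had 297, 243 and 228 normalised counts in control pools and 175, 201 and 100 in DEX pools. It had 234, 165 and 360 at 1 week and 332, 191 and 141 at 4 weeks. The DEX pools lay below all control pools, with a log2 fold change of -0.74 ± 0.36 (unadjusted p = 0.0566, adjusted p = 0.742, limma), and the withdrawal groups overlapped both. *Impact*, a regulator of translation, had group means of 118 to 157, *Inpp5f*, a phosphoinositide phosphatase, of 40.6 to 54.4, and *Slc38a4*, an amino acid transporter, had at most 2 reads in any library.

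In the Prader-Willi and Angelman domain on chromosome 7, *Ndn*, which encodes necdin, had 188 to 216 normalised counts in control pools, 135 to 220 in DEX pools, 172 to 358 at 1 week and 186 to 219 at 4 weeks. *Snrpn*, a splicing protein gene, ran in step with it, at 72.3 to 83.9, 63.1 to 87.5, 67.0 to 113 and 58.8 to 83.2. Their correlation was r = 0.84 (permutation p = 0.00044, adjusted 0.00176) and rho = 0.88 (permutation p = 0.0003, adjusted 0.0012), with r = 0.80 without 2 libraries. *Ube3a*, the ubiquitin ligase whose maternal copy is lost in Angelman syndrome, had 71.9 to 86.2 in control and 103 to 116 in DEX pools, which did not overlap (log2 fold change 0.43 ± 0.24, unadjusted p = 0.101, adjusted p = 0.811, limma). *Magel2* and *Peg12* had 3 and 2 reads in all 12 libraries together.

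In the *Peg10*-*Sgce* region, *Sgce*, a sarcoglycan gene, was among the steadiest members, with 60.7 to 67.2 normalised counts in DEX pools, below all 1-week pools at 80.8 to 89.9 and all 4-week pools at 73.7 to 88.7. The SD of its log2 values about the group means was 0.15, larger than that of 0.853% of all genes. *Peg10*, a retrotransposon-derived gene that starts next to it on the other strand, had 2.47 in the third DEX pool and 34.9 in the third 1-week pool. *Asb4*, a subunit of ubiquitin ligases, and *Ppp1r9a*, an actin-binding protein gene, had group means of 212 to 233 and 25.2 to 36.8.

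In the *Grb10* region, *Grb10*, an adaptor that damps insulin receptor signalling, had 7.71, 12.5 and 10.0 normalised counts in control pools, 14.1, 14.0 and 14.4 in DEX pools, 9.60, 17.8 and 18.3 at 1 week and 15.5, 19.3 and 15.8 at 4 weeks. DEX and 4-week pools lay above all control pools, and the log2 fold change at 4 weeks was 0.76 ± 0.31 (unadjusted p = 0.0253, adjusted p = 0.733, limma). *Ddc*, the aromatic amino acid decarboxylase next to it, had 3.304 to 3.65 in control, 3.14 to 3.52 in DEX, 3.82 to 4.85 at 1 week and 4.71 to 6.77 at 4 weeks. Its withdrawal pools lay above every control and DEX pool, with a log2 difference of 0.80 ± 0.36 for 4 weeks against DEX (unadjusted p = 0.04, adjusted p = 0.464), and these values rest on 28 to 75 reads per library.

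*Igf2r*, the maternally expressed receptor that clears the growth factor IGF2, had 27.1 to 34.1 normalised counts in control, 29.8 to 43.2 in DEX, 25.3 to 28.8 at 1 week and 23.0 to 29.8 at 4 weeks. The log2 difference of 4 weeks against DEX was -0.51 ± 0.24 (unadjusted p = 0.0471, adjusted p = 0.492, limma). *Airn*, the paternal noncoding RNA that overlaps it on the other strand, had 2.02 to 3.64 in DEX pools, below 4.21 to 9.34 at 1 week (log2 difference 1.16 ± 0.46, unadjusted p = 0.0224, adjusted p = 0.344). Reads of the overlap cannot be told apart.

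Some genes of fetal growth were near the floor, although other growth genes, such as *Plagl1* with a mean of 222 normalised counts, were not. *Igf2* and *H19*, the textbook pair in which 1 allele makes the growth factor and the other a noncoding RNA, had at most 4 reads in any library, and so little was counted that no relation between them could be read. In the *Kcnq1* domain *Phlda2* had at most 2 reads, *Ascl2*, a transcription factor gene, had 0 to 16, and *Slc22a18*, a transporter gene, had 6 to 41.

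Against control, the 36 tested members had a median log2 fold change of -0.40 in DEX pools, with 29 below 0 and 6 above, where the median of all genes was -0.02. Without the third DEX pool the members' median was -0.18. The medians were 0.08 at 1 week and -0.23 at 4 weeks, beside 0.00 for all genes in both. The 44 other imprinted genes tested had a median of 0.04 for DEX, with 23 above 0 and 20 below. Their medians were 0.07 at 1 week and 0.17 at 4 weeks. The lower medians of the members for DEX and at 4 weeks were thus not seen in the other imprinted genes. The 3 contrasts share the control pools, and the members' values are not independent, since many were lowest in the same pools. In each contrast 0 members passed the adjusted threshold, where 0.121% of all genes did for DEX and 0.0% did at 1 week and 4 weeks. At an unadjusted p under 0.05 there was 1 member for DEX (all genes 6.8%), 1 at 1 week (all genes 3.79%) and 3 at 4 weeks (all genes 6.35%).

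Pools that did not overlap gave counts near the background as well. In DEX against control *Grb10* and *Ube3a* were higher (background 6.61%) and *Plagl1* and *Zrsr1* lower (6.23%), and at 1 week against control *Ddc* was higher (3.47%) and *Zim1* lower (2.61%). At 4 weeks *Grb10* and *Ddc* were higher (6.77%), and *Zim1*, *Usp29*, *Rian* and *Ppp1r9a* lower (6.42%), which is 11.1% of the 36. With 3 pools against 3 the exact two-sided permutation test cannot go below 0.1 for a single gene.

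Against DEX, 0 members passed the adjusted threshold at 1 week, where 0.433% of all genes did, and 0 at 4 weeks, where 0.873% did. At 1 week 6 of 36 lay above all DEX pools (*Mest*, *Sgce*, *Zrsr1*, *Ddc*, *Airn* and *Slc22a18*), or 16.7% beside 6.97% of all genes, and *Igf2r* lay below (6.87%). At 4 weeks 5 lay above (*Dlk1*, *Grb10*, *Sgce*, *Ddc* and *Airn*, background 9.8%) and 5 below (*Zim1*, *Peg3*, *Usp29*, *Igf2r* and *Ube3a*, background 9.67%), each 13.9%. Unadjusted, 2 members passed at 1 week (all genes 10.8%) and 4 at 4 weeks (all genes 9.94%). Between the withdrawal groups 0 passed the adjusted threshold (all genes 0.0%), 2 passed unadjusted (all genes 5.47%), and *Peg3* alone did not overlap, being lower at 4 weeks (background 3.72%, and 5.19% for higher).

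**Figure D4:**
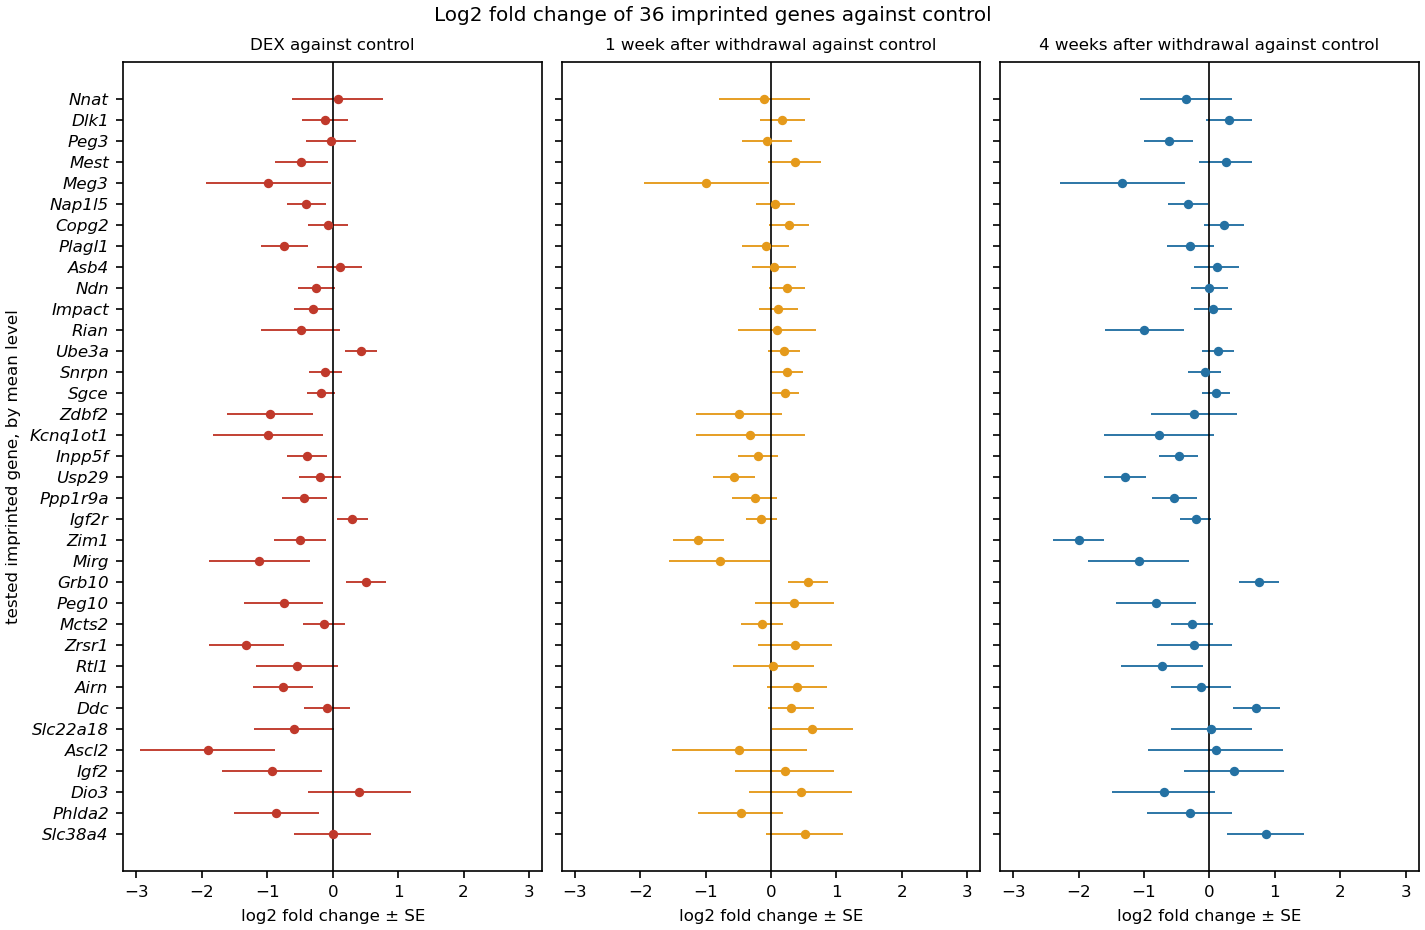
Log2 fold change ± SE of the 36 tested imprinted genes in 3 contrasts against control, on a shared axis from about -3 to 3, ordered by mean level. *Zim1* at -2.00 and *Usp29* at -1.29 lie farthest below 0 relative to their SE at 4 weeks. *Meg3* and *Kcnq1ot1*, which varied widely between pools, have wide bars, although the SE also draws on the trend over all genes.

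By parental allele, the 23 paternally expressed members had a median of -0.29 for DEX against control and the 13 maternally expressed members -0.49. At 1 week the medians were 0.17 (15 above 0 and 8 below) and -0.15 (6 above and 7 below), and at 4 weeks -0.23 and -0.21. The difference between the alleles was not tested.

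RefSeq promoters of 300 bases on GRCm38.p6 matched 34 of the 39 members by symbol, in 50 windows. The hexamer TGCCGC, the core that the imprint-keeping protein ZFP57 binds when methylated, was found on either strand in 26% of these windows and in 11.6% of all 32851 promoter windows, among them *Zim1* and *Meg3* but not the stretch between *Peg3* and *Usp29*. The glucocorticoid receptor half-site AGAACA was found in 16% against 18.97%, and the full palindromic element in 0 member windows and 3 of all windows. The hexamer itself contains a CG, and member windows held a median of 10.5 CG against 7 in all windows, a difference not allowed for here. Windows of 1 gene can overlap, as those of *Mest* with the hexamer do, and a match is a description of letters only.

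Of 53 other imprinted genes in the table, 44 were tested, and the 3 most abundant, *Gnas*, *Cd81* and *Blcap*, had 3232 to 7010, 381 to 874 and 243 to 401 normalised counts. In the F test 1 of the 44 passed, where 0.315% of all genes did. It was *Cobl*, an actin nucleator near *Grb10*, with 80.5 to 134 in DEX pools and 26.4 to 63.6 in all others (adjusted p = 0.0463, limma). It also fell from DEX to 1 week (log2 difference -1.52 ± 0.29, adjusted p = 0.0307) and to 4 weeks (-1.64 ± 0.29, adjusted p = 0.0202). In DEX against control *Gpr1*, a chemerin receptor gene next to *Zdbf2*, rose, with 0 to 1.10 normalised counts in control pools and 5.89 to 15.8 in DEX pools (log2 fold change 4.83 ± 0.82, adjusted p = 0.0294). The study lists both among its changed genes from these same libraries, so they are not independent evidence.

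All 24 genes known to lay down, keep or read imprints were tested and 0 passed the adjusted threshold in any comparison. The share of all genes that passed was itself only 0.0% to 0.873% in these comparisons. *Dnmt1*, the maintenance DNA methyltransferase, had group means of 45.9 to 65.4 normalised counts, and *Trim28*, the corepressor that ZFP57 recruits, of 47.7 to 62.0. *Uhrf1*, which guides DNMT1 to newly copied DNA, had 1.34 to 2.39 in control, 2.78 to 6.62 in DEX, 2.33 to 6.18 in 1-week and 1.85 to 4.33 in 4-week pools (DEX against control, log2 fold change 1.29 ± 0.52, unadjusted p = 0.0251, adjusted p = 0.653, limma). The 5 proliferation markers summed to 3.38 to 6.63 in control, 1.82 to 3.11 in DEX, 12.1 to 44.4 in 1-week and 3.88 to 11.1 in 4-week pools. *Zfp57* was at 0 in 9 of 12 libraries.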

How the data were processed

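The authors trimmed reads with Trim Galore 0.6.5, aligned them to GRCm38 with STAR 2.7.1a and counted pairs on genes with featureCounts 2.0.0 in a stranded mode, although the SMART-V4 and Nextera XT chemistry does not mark strand. The deposited signal is CPM on an effective (TMM) library size, and 100% of 271881 values above 0 were whole reads (tolerance 1e-06). The members and gene lists were chosen with earlier results of these data known. limma 3.58.1 (R 4.3.3, eBayes with trend) was fitted to log2(value + 0.1) of 24736 genes in all 12 libraries, with Benjamini-Hochberg adjustment over all of them, and was tested on simulated data. edgeR 4.0.16 and DESeq2 1.42.0 on the recovered reads were alternatives, and edgeR's quasi-likelihood F test called 165 genes against limma's 78. Groups came from the labels. p-values rest on the spread between pools, which may be partly technical. The SE and p of limma also draw each gene's variance toward the trend over all genes. They therefore need not follow a gene's own pools, as for *Nnat*, with an SE of 0.70 beside a within-group SD of 0.43. Full values are given for members past a threshold, for those with an unadjusted F p under 0.05 and for the 8 with the highest mean level, and the other members are given by ranges. Some further members are given in full because their pools did not overlap, chosen after their values were seen. Pairs of neighbours used 100000 two-sided permutations. Gene lengths and coordinates are from GENCODE M21.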

Additional observations from a re-analysis of the deposited data

How the results depend on the processing

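No member passed the adjusted threshold in the main test, so only gains were possible, and the share of all genes called under each setting stands in brackets. Over the 4 groups the number of members called became 2 with array weights (4.32%), 1 with the replicate number as a block (0.344%), 3 under the likelihood ratio test of edgeR (4.23%) and 2 under DESeq2 (2.97%), and 2 (1.19%) over the remaining groups without the 1-week libraries, an alternative chosen after seeing the data. At 4 weeks against control it became 2 with array weights (0.752%), 1 with the likelihood ratio test (0.38%) and 2 with DESeq2 (0.243%). At 4 weeks against DEX it became 2 with array weights (5.26%), 1 with the replicate block (0.974%), 1 with the likelihood ratio test (2.72%) and 1 with DESeq2 (2.65%). The likelihood ratio test alone gave 3 at 1 week against DEX (2.88%) and 2 at 4 weeks against 1 week (0.655%). Leaving out each library in turn gave 0 to 1, the 1 being *Zim1* without the first 4-week pool, over the 4 groups (0.186%) and at 4 weeks against DEX (0.202%). Of 12 neighbour pairs, 6 passed, against 3 without the 2 farthest libraries and 5 on deviations from group means. The 5 were not all among the 6. They held *Ndn* with *Magel2* (adjusted permutation p = 0.0107), which cannot be read because the 3 reads of *Magel2* lay in 1 library. They held neither pair with *Peg3*. No log2 fold change with an unadjusted p under 0.05 changed sign. The causes were not tested. The labels tie no number to a shared litter, batch or day, and same-numbered pools correlated above 0.1 in 7 of 18 pairs and not in all, so the numbers were not taken as pairing, although 8 of 12 libraries correlated best with their own number, which is a hint from the data of some pairing. Genes near a single read per library cannot show a change at this depth.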
